A study of Mus musculus with 12 samples.

Results

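The cells described here are the endothelial cells captured from mouse SCC35 tumours, the lining cells of the tumour vessels. They were chosen cell by cell from raw UMI counts (counts of distinct captured transcripts) of 4 endothelial genes. A cell was kept if Pecam1, Cdh5, Kdr and Emcn together gave at least 3 UMIs with at least 2 of the genes detected, and if it held no UMI of Ptprc (the pan-leukocyte gene CD45) or Krt5 (a keratinocyte keratin). This gate held 411 of 116375 cells with a single clear hashtag, of which 403 came from control and KO tumours of days 6 to 16, 7 from the tumours called WT and 1 from a day 0 sample. The gate genes, and every gene that marks the same cells, were in effect used by this choice, so the levels of those genes are descriptions without a test.

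The series comes from a study of melanoma rejection and profiled SCC35 lines made to lack Mif, a secreted cytokine, beside lines labelled as Mif KO controls. Control lines 15 and 18 and KO lines 19 and 24 gave hashed samples at days 0, 6, 10 and 16 with letters A to C, and a further 3 tumours are called WT in the sample sheet. Tumours were dissociated, tagged with hashtag antibodies, sorted for live cells and run as 10x 5′ single-cell libraries, of which 4 held 1 line each and 2 held tumours of several lines. The labels give no strain, sex or age of the animals, and do not say whether a line is a single clone or whether each letter is a separate animal, so p-values over tumours measure the spread between these samples. Mif was targeted in the tumour line, and the endothelial cells belong to the tumour around it. The WT tumours entered no comparison.

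Endothelial cells line blood and lymphatic vessels, hold them closed with junction proteins such as VE-cadherin (Cdh5), and lay down a basement membrane of type IV collagen and laminin. In tumours, VEGF acting through Kdr drives sprouting, with tip cells led by Dll4 and Esm1 expression. The same cells decide which leukocytes enter, through selectins, Icam1, Vcam1 and presented chemokines, and interferon-gamma raises their Cxcl9, Cxcl10 and MHC genes. Mif signals through Cd74 and chemokine receptors.

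The 6 libraries held 163866 cells that passed filters, and 116375 of these carried a single clear hashtag. The 411 gated cells had a median of 5384 UMIs (range 554 to 34541), close to the median of 5278 over all assigned cells. Of 149440 distinct barcodes that passed, 13716 occurred in 2 or more libraries, 76 gated cells had such a barcode, and no barcode was gated in 2 libraries. Mif checked the labels: in day 0 cells it was at 2980 and 2670 CPM (a gene's UMIs scaled to the same total in every sum of cells) in control lines 15 and 18, against 46.3 in KO line 19 and 226 in KO line 24. At days 6 to 16, cells outside the gate with no Ptprc UMI had Mif at 2200 and 2000 CPM in the control lines and at 215 and 749 CPM in KO lines 19 and 24. In the 15 pairs of tumours of 1 line and day with at least 10 gated cells each, none of them from line 24, the summed counts differed by more than UMI counting noise (chi-square per degree of freedom of at least 1.98), which does not cover the sampling of cells.

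All 4 gate genes were detected in 212 of the 411 cells, 3 in 137 and 2 in 62. The 4 genes summed to a median of 10 UMIs per cell (range 3 to 50). At the edge of the rule, 32 cells had exactly 3 gate UMIs (median 3796 UMIs in all), and 47 cells just outside had 2 gate UMIs from 2 genes (median 3334 UMIs). A further 113 cells had 3 or more gate UMIs from 1 gene alone, and 30 met the gate but for a Ptprc or Krt5 UMI, 1 of them with Krt5. At day 0, 1 of 5769 cells passed the gate, a share of 0.0173% (exact 95% binomial interval 0.000439 to 0.0965%, counting error only).

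The 4 gate genes were high by choice. Pecam1 had a UMI in 92.9% of the 411 cells, and summed over them Cdh5 was at 502 CPM, Kdr at 266 and Emcn at 390, against 3.75, 1.24 and 0.137 CPM in the other assigned cells of control and KO tumours. Of the given markers, Egfl7 was the one that the gate did not use. It was at 669 CPM and had a UMI in 90.8% of gated cells, against 7.51 CPM in other cells with a Ptprc UMI and 12.4 CPM in those without. All 30 genes of the endothelial identity list were detected at 5 CPM or more. Esam (an endothelial adhesion molecule) was at 593 CPM, Ramp2 (the adrenomedullin receptor partner) at 806, Tie1 (an orphan angiopoietin receptor family member) at 169, Sox18 (an endothelial transcription factor) at 224 and Icam2 at 284. The list's highest genes were Plvap, the diaphragm protein of fenestrated vessels, at 1640 CPM in 95.1% of cells, and Ly6c1 at 1630 CPM in 88.3%, but Ly6c1 was also at 605 CPM in other cells without Ptprc. Genes named in the account of levels beyond the 2 highest of each list were chosen after their values were seen.

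Markers of most other cell types were low, with some exceptions. The rule left out cells with a Ptprc or Krt5 UMI, so low leukocyte and keratinocyte markers follow in part from it. Krt5 itself is in the keratinocyte list. The pericyte genes Rgs5 (4.55 CPM), Pdgfrb (2.45) and Myh11 (0.35) were almost absent and Cspg4 and Higd1b were at 0. The whole list of 12 pericyte and smooth muscle genes summed to 99 CPM, above the 67.2 CPM of all other cells. Of these 12 genes, 7 were under 5 CPM. Kcnj8 (36 CPM) and Abcc9 (23.8 CPM), which together form a potassium channel usually taken as a pericyte mark, were each found in about 12% of gated cells (11.9% and 12.2%). All 11 T and NK cell markers were under 5 CPM, as were all 8 keratinocyte markers, all 6 red cell markers and all 6 Schwann cell markers. The 12 macrophage markers summed to 387 CPM, against 7750 CPM in other cells with a Ptprc UMI. The 12 fibroblast markers summed to 230 CPM against 1170 in all other cells. Xist, transcribed from the inactive X in female cells, was at 274 CPM in gated cells and 247 in other cells with a Ptprc UMI, against 39 in other cells without one and 2.8 in day 0 cells, and the 4 Y-linked genes looked at were at 0 in gated cells.

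**Figure D1:**
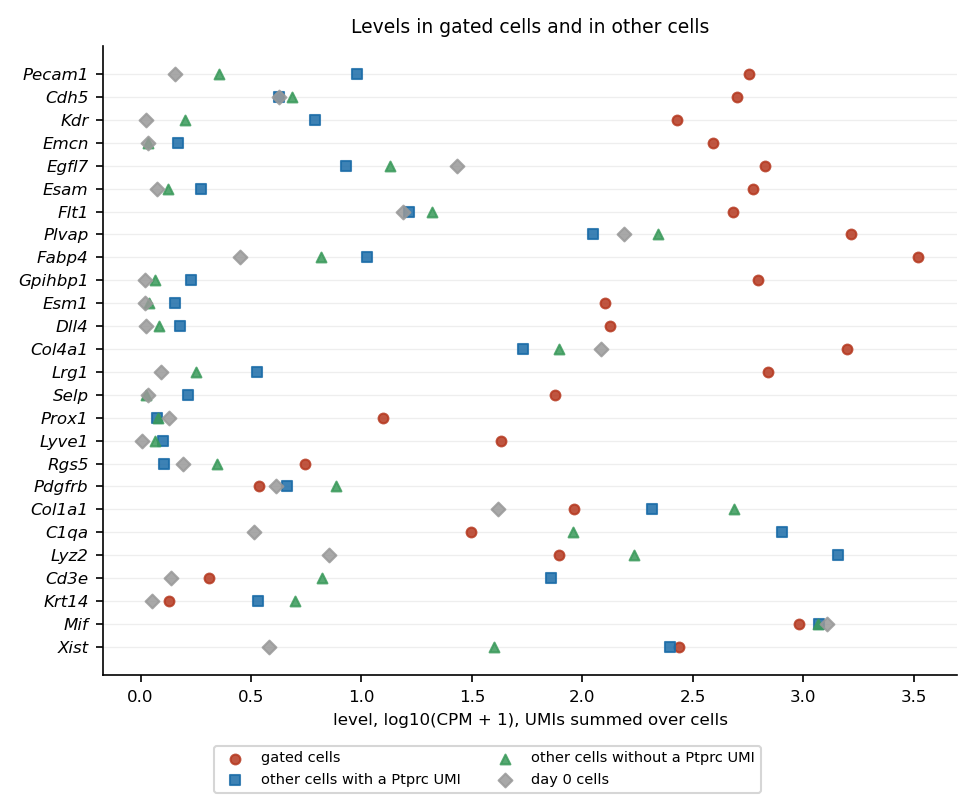
Levels on a log10(CPM + 1) scale, from UMIs summed over cells: red circles are the 411 gated cells, blue squares other cells with a Ptprc UMI, green triangles other cells without one (both at days 6 to 16), grey diamonds day 0 cells. Endothelial genes from Pecam1 to Lyve1 lie to the right in gated cells, while Rgs5, Pdgfrb, Cd3e and Krt14 lie near 0 in them.

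By vessel type, the members of each list were found in very different shares of cells. Fabp4, a fatty acid carrier of capillaries, was at 3310 CPM in 89.5% of cells, Gpihbp1, which carries lipoprotein lipase to the capillary surface, at 620 CPM in 71.8%, Cd36 at 260 CPM and Rgcc at 301 CPM. Of the tip list, Dll4 was at 133 CPM in 48.4% of cells, Esm1 at 126 CPM in 24.8%, Trp53i11 at 325 CPM, Mest at 302 CPM, Apln at 142 CPM and Angpt2 at 82.6 CPM. At least 3 of the 18 tip genes were detected in 88.6% of cells, at least 3 of the 11 venous genes in 62.3% and at least 3 of the 14 arterial genes in 27.7%, shares that depend on the length and levels of each list and on a cell's UMIs. Arterial genes ranged from Clu in 40.4% of cells, Efnb2 (ephrin-B2) in 31.9% and Cxcl12 in 28.2% down to Gja4 (connexin 37) in 13.1%, Hey1 in 12.7% and Gja5 in 3.89%. Venous genes ranged from Lrg1, at 693 CPM in 75.4% of cells, and Tspan7, at 313 CPM in 69.3%, down to Selp (P-selectin) in 12.4%, Sele (E-selectin) in 8.03% and Ackr1 in 4.87%. Of the cell cycle list, Mki67 had a UMI in 31.9% of gated cells and Top2a in 30.4%, at 121 and 172 CPM, against 115 and 191 CPM in other cells without Ptprc.

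The receptor and matrix genes filled out this picture. Flt1 (VEGF receptor 1) was at 479 CPM against 19.9 in other Ptprc-negative cells, Nrp1 at 154, Notch1 at 83.6 and Notch4 at 77.7, while the ligand Vegfa was at 15.7 CPM, below the 68.2 CPM of cells with Ptprc. Basement membrane genes were Col4a1 at 1570 CPM (77.7 in other Ptprc-negative cells), Col4a2 at 994, Igfbp7 at 5160, Sparc at 5330, Nid1 at 232 and Lama4 at 190. Junction and caveola genes included Cav1 at 651 CPM and F11r at 278. Klf2, a gene induced by blood flow, was at 628 CPM and Eng, a BMP co-receptor, at 368. The immune-facing genes were also present: Cxcl9 at 942 CPM in 45.5% of cells against 228 CPM in cells with Ptprc, Cxcl10 at 513, Icam1 at 230, Lgals9 at 539 in 82% of cells, Nectin2 at 109 and Cd274 (PD-L1) at 49 CPM in 18.2%. MHC class I genes were high (B2m 3030, H2-D1 2330, H2-K1 1930 CPM), and class II genes were low (Cd74 306, H2-Ab1 64 CPM, against 4270 and 1240 in cells with Ptprc).

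A small lymphatic set stood inside the gate. Of the 10 lymphatic-list genes, 17 cells had 3 or more, 7 had 2, 86 had 1 and 301 had none. These 17 cells were chosen by those genes, so the following is description: Lyve1 was in 15 of 17 cells and 4 of the 394 others, Prox1 (the lymphatic master transcription factor) in 12 and 4, and Ccl21a, a chemokine of lymphatic vessels, in 13 and 0. Genes that the choice did not use followed. Flt1 was in 2 of the 17 cells and 308 of the 394, and Gpihbp1 in 3 and 292. Emcn, a gate gene, was in 7 and 321. Maf was in 13 and 22, Stab1 in 13 and 115, and Pard6g in 10 and 0 (Maf, Stab1, Pard6g and the genes of the next sentence were picked after their values were seen). Gap43 was in 10 and 6, and Loxl2 in 11 and 8. Egfl7 was shared, in 16 of 17 and 357 of 394. KO line 24 held 10 of these 17 cells among its 38 gated cells at days 6 to 16, against 3 of 132 in KO line 19, 2 of 137 in control line 18, 1 of 96 in control line 15 and 1 of 7 in the WT tumours. Within line 24 they came from 5 samples: 5 of 11 gated cells in 1 day 10 tumour, and 1 or 2 cells in each of 4 others. Their median of 5658 UMIs was near the 5379 of the other gated cells, and 8 of the 17 carried line or macrophage genes as defined next.

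Part of the gated cells also held genes typical of other cells. A set of 57 genes was taken that had at least 50 CPM in the Ptprc-negative cells of every line and at least 2 times the gated level, after the data had been seen. In 119 gated cells these genes reached 25% or more of their level in those cells, and 20 gated cells had 5 or more UMIs of the macrophage list. Together 129 cells (31.4%) met either mark, with a median of 9752 UMIs against 4430 in the other 282, and 49 cells lay between 15 and 35% of the line level. The share was 25.7% at day 6 (36 of 140 cells), 26% at day 10 (38 of 146) and 44.4% at day 16 (55 of 124). By line it was 27.1% in 15, 38% in 18, 26.5% in 19 and 36.8% in 24. The levels given above differ between these cells and the other 282. In the carrying cells and the others, Cxcl9 was at 319 and 1580 CPM, Gpihbp1 at 274 and 978 and Fabp4 at 1690 and 4980. The cycle gene Top2a was at 230 and 113 CPM and Mki67 at 143 and 98.1, and 81.4% and 48.9% of these cells had at least 3 cell cycle genes. Each comparison below was also made without these cells.

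**Figure D2:**
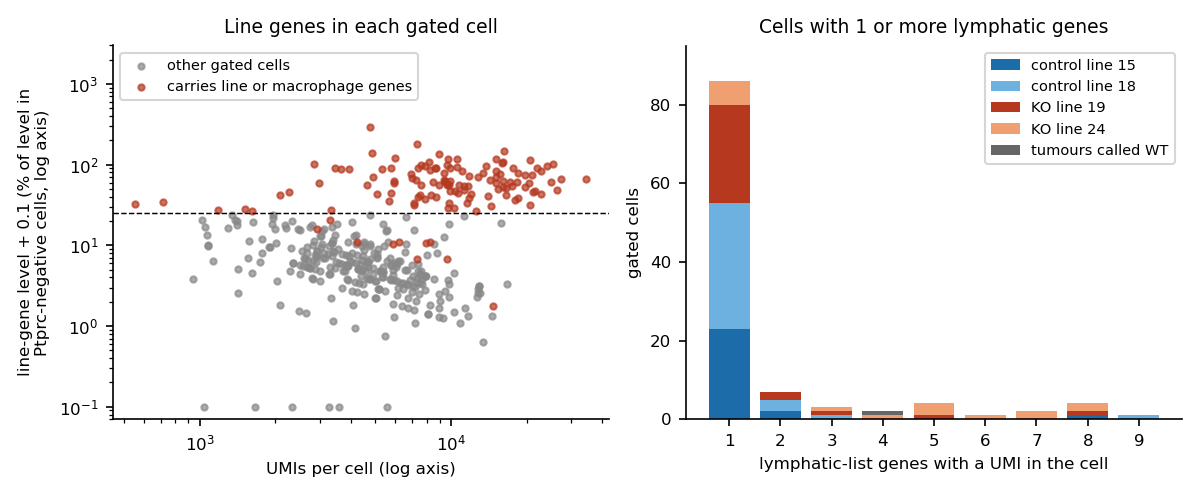
Left: UMIs per gated cell against the level of the 57 line genes, both on log axes, with the 25% line dashed; red cells carry line or macrophage genes. Right: number of gated cells by how many of 10 lymphatic genes they held, stacked by line, where most bars from 3 genes upward hold cells of KO line 24.

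The mean share of gated endothelial cells was lower in the KO than in the control tumours. The share of assigned cells inside the gate was 0.571% ± 0.243 (SD, n = 18 tumours) in control and 0.327% ± 0.251 (n = 17) in KO tumours, a difference of -0.244 percentage points (two-sided permutation test within day, p = 0.00493). By line, tumours of control line 15 had 0.626% ± 0.264 (n = 9), of control line 18 0.515% ± 0.22 (n = 9), of KO line 19 0.462% ± 0.254 (n = 9) and of KO line 24 0.175% ± 0.143 (n = 8). Of these 4 lines, line 24 stood lowest, and line 19 overlapped the control lines: its tumours ran from 0.143 to 0.923%, against 0.346 to 0.993% in line 15 and 0.307 to 1% in line 18. The 3 tumours called WT, which are not labelled KO and entered no test, had 0.0774% ± 0.0161, below the mean of each line. Without KO line 24 the difference was -0.109 points and did not pass (exact permutation test, p = 0.269), and without control line 15 it was -0.188 (exact permutation test, p = 0.0517). With the 4 line means as the values, the exact permutation test gave p = 0.333, the smallest it allows with 2 lines a group. In the 2 libraries that mixed lines, KO tumours had 0.443% ± 0.261 and control tumours 0.651% ± 0.291 (n = 6 each, exact permutation test, p = 0.194). With group labels permuted within library and day, a block added after the data were seen, the plain difference of means in these libraries was -0.147 points (n = 5 KO and 6 control tumours, exact permutation test, p = 0.5). The single-line libraries alone gave 0.264% and 0.531% (n = 11 and 12, permutation test, p = 0.0107). Each of these held 1 line, so line and library cannot be told apart in that comparison. The share counts cells that came through dissociation and the live sort, and it is no measure of vessel density. It also depends on depth: 8572 of 26609 cells of line 24 had under 2000 UMIs, against 2870 of 16250 in line 15, 5716 of 30317 in line 18 and 5004 of 28401 in line 19. With every cell thinned to 2000 UMIs and shallower cells left out, the shares were 0.264% ± 0.199 in KO and 0.456% ± 0.245 in control tumours (permutation test, p = 0.00915). Thinning also removed Ptprc and Krt5 UMIs, so a cell could enter the gate by losing them. The day 16 tumour of line 24 with letter A went from 0 to 1 gated cells. Without the gated cells that carry line or macrophage genes the difference was -0.175 points (permutation test, p = 0.0196).

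The share also fell between day 6 and day 16. It was 0.511% ± 0.239 (n = 11) at day 6 and 0.325% ± 0.2 (n = 12) at day 16, a difference of -0.186 points (permutation test within line, p = 0.0298). By group, control tumours had 0.553% ± 0.234 at day 6, 0.742% ± 0.269 at day 10 and 0.419% ± 0.0998 at day 16 (n = 6 each), and KO tumours 0.461% ± 0.261 (n = 5), 0.311% ± 0.245 and 0.232% ± 0.24 (n = 6 each). Line 24 went from 0.306 and 0.373% at day 6 to 0, 0.0409 and 0.14% at day 16, where the tumour at 0 had 0 of 1416 cells, for which the limit of 3 counts is 0.212% and the exact 95% interval reaches 0.26%. Control line 15 did not go down: its tumours were at 0.346, 0.486 and 0.404% at day 6, at 0.929 to 0.993% at day 10 and at 0.449, 0.491 and 0.556% at day 16. Control line 18 went from 0.565, 0.514 and 1% at day 6 to 0.4, 0.309 and 0.307% at day 16. The day 16 difference was not passed with a gate of 5 UMIs and 3 genes (-0.0972 points, permutation test, p = 0.188), nor in the mixed libraries (-0.32, exact permutation test, p = 0.25) or the single-line libraries alone (-0.107, exact permutation test, p = 0.173), nor without line 18 (-0.122, exact permutation test, p = 0.205) or line 24 (-0.136, exact permutation test, p = 0.213). Without the gated cells that carry line or macrophage genes the difference was -0.166 points (permutation test, p = 0.0397). The WT tumours had 0.0628, 0.0947 and 0.0747% at days 6, 10 and 16, each from 2 or 3 gated cells.

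**Figure D3:**
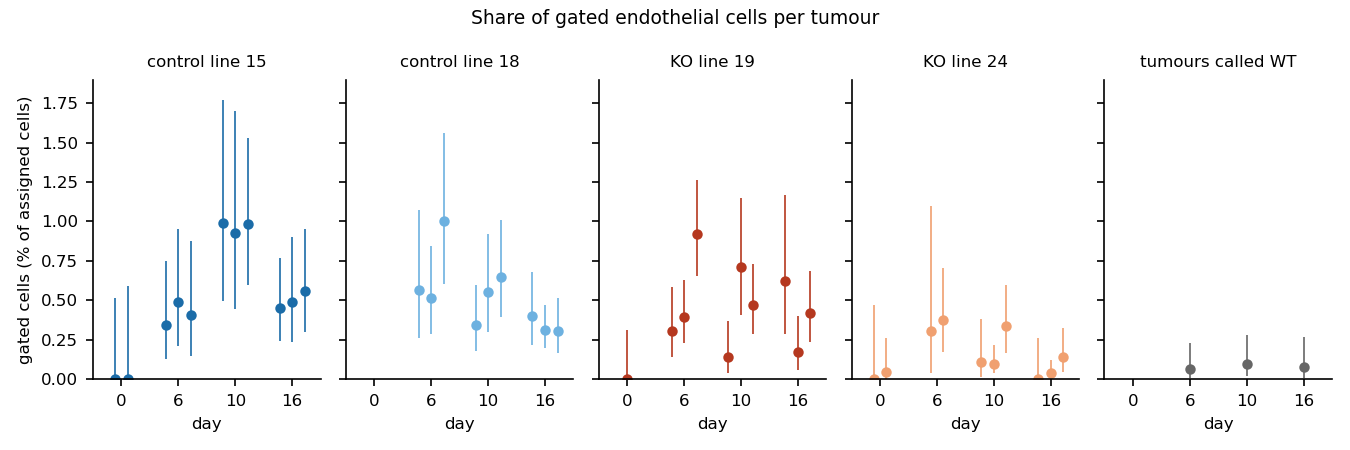
Percent of assigned cells inside the gate for each tumour with at least 200 assigned cells, by day and line, with exact 95% binomial intervals. KO line 24 and the WT tumours lie below 0.4%, and the day 0 samples at or near 0.

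For genes, UMIs of gated cells were summed per tumour, and 14 control and 6 KO tumours with at least 10 gated cells were compared. These sums held 54235 to 189133 UMIs. The KO side rests mainly on line 19, with 5 tumours, and on 1 day 10 tumour of line 24. In that line 24 tumour 5 of 11 gated cells held 3 or more lymphatic genes, and 6 did not carry line or macrophage genes. It is the whole KO side in each value given below for KO against control without KO line 19. The part of its lymphatic and carrying cells in such values was not tested. No gene of 2722 tested (0%) passed an adjusted p of 0.05 in edgeR's quasi-likelihood test with day as a term. At an unadjusted p under 0.05, 93 genes (3.42%) were higher and 72 (2.65%) lower in KO tumours. DESeq2 on the same sums called 6 genes (0.221%): Pmepa1, Cxcl12, Actn1 and the transcript AY036118 as higher, Depp1 and Lrg1 as lower. With tumours of at least 5 gated cells (18 control, 12 KO), edgeR called 14 of 1720 genes (0.814%), 7 higher and 7 lower. Beside genes described next, the higher ones included Fosb, an immediate early transcription factor (log2 change 1.07), and the chaperone Hsp90aa1 (0.55). The lower ones included Tgfbi, a TGF-beta-induced matrix protein (-1.2), and Ednrb, an endothelin receptor (-1.56). Tgfbi was at 167 CPM in the cells that carry line or macrophage genes and 45.5 CPM in the others, and the 1 macrophage marker tested in that fit had a log2 change of -2.35. The part of these cells in the Tgfbi call was not tested.

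The genes that came nearest to a difference are named here, all of them chosen after their values were seen except Cxcl12, Lrg1, Cd74 and Mif, which the rule for named genes holds. Depp1, a FOXO target that regulates autophagy, was at 474 ± 347 CPM in control (SD, n = 14) and 73.7 ± 60.7 in KO tumours (n = 6). In control tumours it ran from 111 to 1220 CPM, and in KO tumours it was at 6.38, 143, 155, 43.4 and 55.4 in line 19 and 38.7 in line 24, so only the 2 highest KO tumours reached the lowest of the control ones. The log2 change was -2.08 (SE 0.46, edgeR adjusted p = 0.0904). It passed in DESeq2 (-2.12, adjusted p = 0.0243), with the lower cell minimum (-2.42, edgeR adjusted p = 0.00215), in the mixed libraries alone (-2.29, edgeR adjusted p = 0.0461) and with 1 sum of all days per line (-2.66, edgeR adjusted p = 0.0108). Over its alternatives the adjusted p ran from 4.04e-13, with no filter on low counts, to 0.627, with library as a term. Depp1 is a strongly endothelial gene here, at 290 CPM in gated cells and 0.144 in all other cells.

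Cxcl12, a chemokine that holds and draws CXCR4-bearing cells, was higher in KO tumours without passing: 51, 333, 513, 260 and 214 CPM in line 19 and 290 in line 24, against 13 to 202 in control tumours. Its log2 change was 1.86 (SE 0.41, edgeR adjusted p = 0.0904, range over alternatives 2.87e-12 to 0.857). That low end, and those given next for Pmepa1 and Actn1, came with no filter on low counts. Pmepa1, a TGF-beta-induced inhibitor of that pathway, was at 174 ± 49.4 CPM in KO and 67.1 ± 31.6 in control tumours, a log2 change of 1.39 (SE 0.29, edgeR adjusted p = 0.0904, range 8.69e-05 to 0.661). Of the 6 KO tumours, 5 lay above the highest control tumour, which was at 125 CPM. Actn1, the actin crosslinker alpha-actinin, was at 303 ± 59.7 against 165 ± 51.8 CPM (log2 change 0.83, SE 0.19, edgeR adjusted p = 0.136, range over alternatives 0.0126 to 0.998). Its change was 0.38 without KO line 19 and 0.36 without the carrying cells. Lrg1, a secreted glycoprotein that modulates endothelial TGF-beta signalling, was at 453 ± 190 CPM in KO and 851 ± 273 in control tumours (log2 change -1.02, SE 0.25, edgeR adjusted p = 0.176). Without KO line 19, where the KO side was the 1 line 24 tumour with lymphatic cells, its change was -1.75. Without the cells that carry line or macrophage genes it was -0.42. Igfbp3, a binding protein of insulin-like growth factors, was at 1100 ± 653 against 2630 ± 1190 CPM (log2 change -1.08, SE 0.28, edgeR adjusted p = 0.29) and was called with the lower cell minimum (-1.44, edgeR adjusted p = 0.0121). Its change was -2.46 without KO line 19, again with the 1 line 24 tumour as the KO side. It was -0.62 without the carrying cells (edgeR adjusted p = 0.727) and -0.55 in the mixed libraries alone (edgeR adjusted p = 0.948).

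Mif in the gated cells themselves was lower in KO tumours, at 756 ± 398 against 1160 ± 281 CPM, which did not pass (log2 change -0.6, SE 0.22, edgeR adjusted p = 0.622). With the lower cell minimum it passed at -0.9 (edgeR adjusted p = 0.0257). The line 24 tumour was at 1450 CPM, inside the control range of 780 to 1730, and without line 19 the change was 0.35. Gated cells that carried line or macrophage genes had Mif at 1190 CPM and the others at 713 CPM. Among the others, Mif was at 799 and 671 CPM in control lines 15 and 18 and at 608 and 944 CPM in KO lines 19 and 24, and the fitted change without the carrying cells was -0.1 (edgeR adjusted p = 0.971). Cd74, which binds Mif, was at 476 ± 441 CPM in KO and 189 ± 359 in control tumours (log2 change 1.48, SE 0.77, edgeR adjusted p = 0.805). It passed in the mixed libraries alone (2.75, edgeR adjusted p = 0.0258) and, in tumours with 10 or more cells left, without the carrying cells (4.12, edgeR adjusted p = 0.0228, 5 control and 4 KO tumours). These 4 KO tumours were all of line 19, at days 6 and 10. The other gene called in that last fit was Cxcl10 (2.26, edgeR adjusted p = 0.0228), against 0.69 with all gated cells (edgeR adjusted p = 0.911). Without these cells and with 5 or more cells left (17 control and 10 KO tumours), 0 of 854 genes passed in edgeR, with 90 at an unadjusted p under 0.05.

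**Figure D4:**
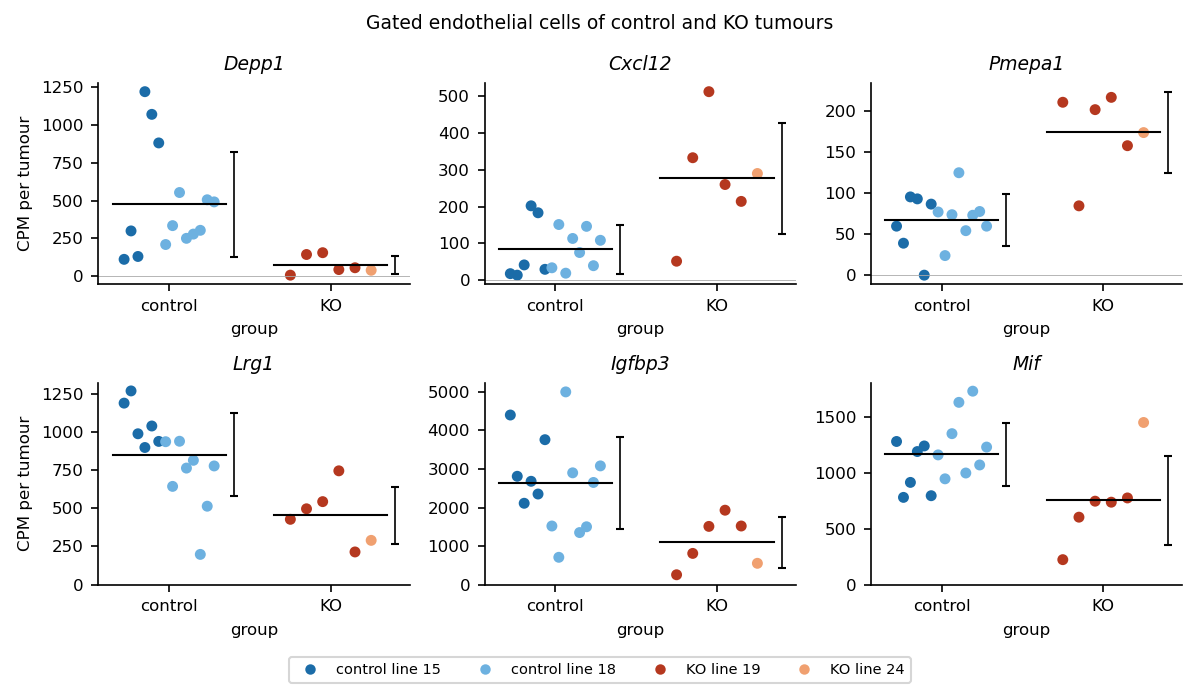
CPM of 6 genes in gated cells of each tumour, by group, coloured by line, with the mean (line) and SD (bar beside it). Depp1, Lrg1 and Igfbp3 tend lower and Cxcl12 and Pmepa1 higher in the 6 KO tumours, and the ranges of all 6 genes overlap between groups.

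In the edgeR fit of tumours with at least 10 gated cells no list member passed between KO and control tumours. With at least 5 cells, 2 immediate early and stress genes (Fosb and Hsp90aa1) and Mif passed, and DESeq2 called the list members Cxcl12 and Lrg1. Without the carrying cells, Cd74 and the recruitment gene Cxcl10 passed at 10 cells per tumour, where the KO side was line 19 alone, and neither passed at 5. Members are given here, from the first fit, by their counts at an unadjusted p under 0.05. Of all 2722 genes tested, 93 (3.42%) were higher and 72 (2.65%) lower at that level, and the median log2 change was -0.02. The endothelial identity, junction and VEGF, angiopoietin and Notch lists hold gate genes, so they are given by their median only: -0.12 over 26 genes, -0.13 over 12 and -0.05 over 12. The basement membrane list had 1 of 17 higher and 2 lower (median -0.06), with Col4a1 at 1310 ± 297 CPM in KO and 1740 ± 311 in control tumours (log2 change -0.4, SE 0.14, edgeR adjusted p = 0.568, and -1.09 without KO line 19). Interferon response genes had 0 of 22 either way (median 0.16), MHC class I genes 0 of 15 (median 0.03) and leukocyte recruitment genes 0 of 11 (median 0.17). MHC class II had 1 of 4 higher (median 1.53), all 4 with values above 0. Venous genes had 0 of 6 higher and 1 lower (median -0.45), arterial genes 1 of 5 higher (median 0.19), tip genes 1 of 16 higher (median 0.05) and cell cycle genes 1 of 14 lower (median -0.19). In these lists Fabp4 was at 3220 ± 1370 and 3030 ± 544 CPM in KO and control, Plvap at 1420 ± 544 and 1860 ± 557, B2m at 2880 ± 482 and 2930 ± 833 and Cxcl9 at 1030 ± 1100 and 792 ± 1420. Macrophage markers summed to 15.5 to 650 CPM in KO tumours (median 97.7) and 8.55 to 2840 in control tumours (median 195). Their part in these values was not tested.

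Between day 6 and day 16, 5 of 11 leukocyte recruitment genes were lower at an unadjusted p under 0.05, and none passed over all genes. These 5 were Icam1, Selp, Cxcl9, Cxcl10 and Ccl2, while Icam2 (log2 change 0.06), Jam2 (0.22) and Podxl (0.21) had values above 0. No gene of 2722 (0%) passed in edgeR with group as a term, while 78 (2.87%) were higher and 99 (3.64%) lower at an unadjusted p under 0.05. DESeq2 called 1 gene (0.0368%), Icam1. Icam1, the integrin ligand on which leukocytes arrest, was at 325 and 460 CPM in the day 6 tumours of line 19 and 253 and 358 in those of line 18. At day 16 it was at 166 in line 19, 0, 137 and 57.8 in line 15 and 0, 67.9 and 12 in line 18. The 9 day 10 tumours, at 221 ± 89.7 CPM, spanned 113 to 406 and overlapped those of both other days. The log2 change was -2.44 (SE 0.48, edgeR adjusted p = 0.0938, DESeq2 adjusted p = 0.0202), and with line as a term it was -2.5 (edgeR adjusted p = 0.0413). Over its 17 alternatives the change of Icam1 ran from -7.86 to -1.2. The adjusted p ran from 2.15e-13, with no filter on low counts, to 0.452. Both ends of the change were without the carrying cells: -7.86 with 1 day 16 tumour, and -1.2 with at least 5 cells per tumour (edgeR adjusted p = 0.22).

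Selp, which starts leukocyte rolling, was at 83, 217, 110 and 318 CPM at day 6 and 0 to 45.8 CPM at day 16. At day 10, 1 tumour of line 15 was at 312 CPM. The log2 change of Selp was -3.75 (SE 0.87, edgeR adjusted p = 0.3). It passed with library as a term (-5.27, edgeR adjusted p = 0.00183) and with line as a term (-4.8, edgeR adjusted p = 0.00834). Without the cells that carry line or macrophage genes it was 0.36, with 1 day 16 tumour in that fit. Cxcl9, a chemokine for CXCR3-bearing T cells, was at 1460 ± 1130 CPM at day 6 (n = 4), 1080 ± 1720 at day 10 (n = 9) and 253 ± 265 at day 16 (n = 7). Its day 6 tumours were at 2900 and 1800 in line 19 and 540 and 580 in line 18, and 1 day 10 tumour of line 18 reached 5510. Cxcl10, of the same family, was at 819 ± 563, 473 ± 292 and 166 ± 170 CPM. Ccl2, a monocyte chemokine, was at 392 ± 101, 189 ± 164 and 117 ± 112 CPM. Car4, a capillary carbonic anhydrase, was at 236 ± 154, 138 ± 94.5 and 58.2 ± 42.4 CPM. Igfbp3 went the other way, at 823 ± 524, 2510 ± 1440 and 2500 ± 811 CPM (log2 change 1.28, SE 0.36, edgeR adjusted p = 0.437). In all these day means the day 6 tumours came from lines 18 and 19 alone, while those of day 16 also included line 15. Line and day are thus partly joined in them.

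**Figure D5:**
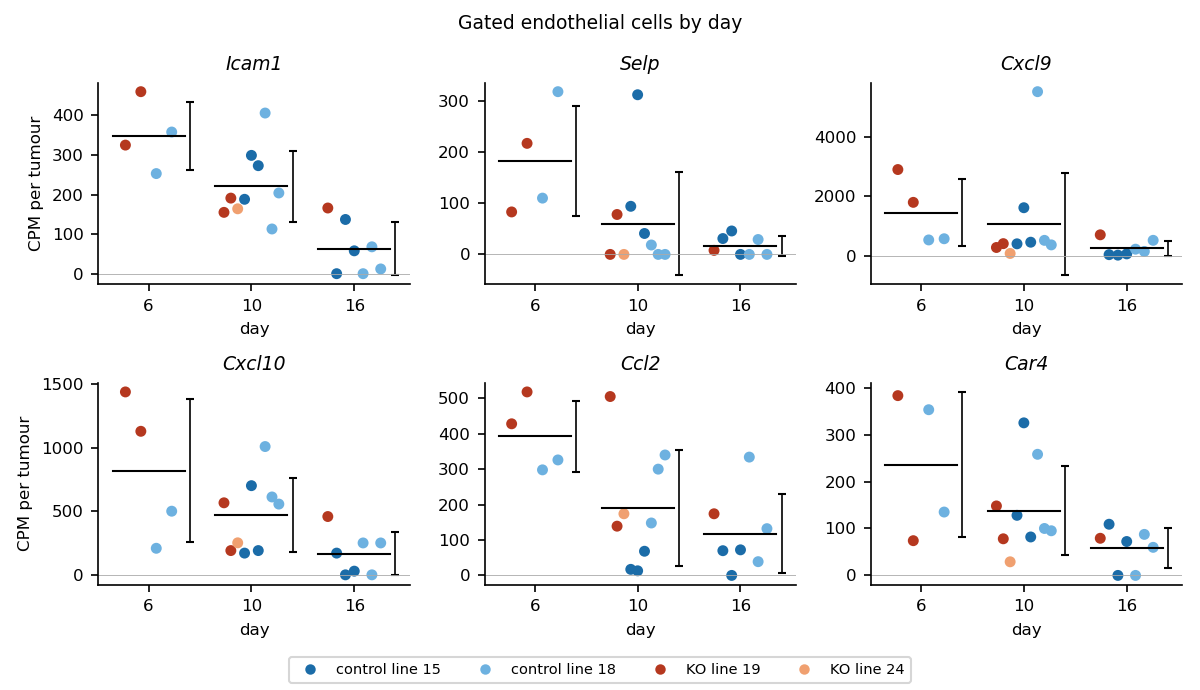
CPM of 6 genes in gated cells of each tumour by day, coloured by line, with the mean (line) and SD (bar beside it). The 6 genes tend lower at day 16 than at day 6, with a wide spread between tumours. None of them passed in edgeR with group as a term.

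When the cells that carry line or macrophage genes were left out, and tumours with at least 5 remaining gated cells were kept (9 at day 6 and 8 at day 16), 16 of 854 genes passed (1.87%), 6 higher and 10 lower at day 16. This set was chosen after the data were seen, as were the genes it names. The chemokine genes Cxcl9, Cxcl10, Ccl2 and Cxcl1 fell. The log2 change of Cxcl9 was -3.01 (SE 0.82, edgeR adjusted p = 0.0498) and that of Cxcl10 -3.24 (SE 0.72, edgeR adjusted p = 0.0228). It was -3.94 for Ccl2 (SE 0.81, edgeR adjusted p = 0.0203) and -1.87 for Cxcl1, a neutrophil chemokine (SE 0.5, edgeR adjusted p = 0.049). With all gated cells and at least 10 per tumour, the changes were -2.44 for Cxcl9, -1.97 for Cxcl10, -1.44 for Ccl2 and -0.57 for Cxcl1 (edgeR adjusted p = 0.542, 0.481, 0.644 and 0.854). Car4 (-2.38) and the antiviral membrane protein gene Ifitm3 (-0.84) fell too, against -2.01 and -0.56 with all gated cells (edgeR adjusted p = 0.437 and 0.603) and -0.52 and -0.24 in the mixed libraries alone. With all gated cells kept and the same minimum of 5 cells per tumour, edgeR called 0 genes. Igfbp3 rose by 1.59 (SE 0.34, edgeR adjusted p = 0.0203), Cdh13 (T-cadherin) by 1.23 and Nes (nestin, an intermediate filament of new vessels) by 1.16. In cells summed per line, Cxcl9 went from 957 to 92.7 CPM in line 15, 1180 to 78.5 in line 18, 4590 to 1510 in line 19 and 5110 to 133 in line 24. Ccl2 went from 612 to 64.2, 561 to 15.7, 689 to 58.3 and 697 to 267 CPM in the same order. Cxcl10, Car4, Icam1 and Ifitm3 were also lower at day 16 in each of the 4 lines, whereas Cxcl1 was not lower in line 19 (459 CPM at day 6). Selp went from 20.5 to 47.1 CPM in line 18 and was lower at day 16 in the other 3 lines. Igfbp3 went from 3730 to 4380 CPM in line 15, where it was already high at day 6. It went from 1540 to 4380 in line 18, 782 to 2850 in line 19 and 38.7 to 0 CPM in line 24. The line 24 day 16 sum holds only 3 cells.

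Over all 2722 genes, 78 (2.87%) were higher and 99 (3.64%) lower at an unadjusted p under 0.05, with a median of 0.01. By list at that level, interferon response genes had 5 of 22 lower and 0 higher (median -0.86). Leukocyte recruitment genes had 5 of 11 lower and 0 higher (median -0.57), and MHC class I genes none, but all 15 lay below 0 (median -0.36). Without the carrying cells at 5 cells per tumour, a set chosen after the data were seen, 73 of all 854 genes were lower at that level. There, 7 of 9 interferon response genes (median -1.76), 6 of 8 recruitment genes (median -1.86) and 7 of 14 MHC class I genes (median -0.59) were lower and 0 higher. H2-K1 was at 1930 ± 599 CPM at day 6 and 1530 ± 352 at day 16 (log2 change -0.34, SE 0.27, edgeR adjusted p = 0.884), and without KO line 19 the change was -0.01. The interferon list made up 0.692 and 0.656% of UMIs in the 2 day 6 tumours of line 19, but 0.249 and 0.316% in those of line 18, against 0.143 to 0.434% in the 7 day 16 tumours, and 1.13% in 1 day 10 tumour of line 18. The tip list had 4 of 16 higher and 0 lower (median 0.17), and none passed over all genes. Among them were Esm1 (log2 change 1.53, SE 0.57) and Apln (1.02, SE 0.43), both named after their values were seen. Basement membrane genes had 2 of 17 higher and 1 lower (median 0.16), hypoxia and glycolysis genes 0 of 14 either way (median 0.22). The endothelial identity list, which holds the gate genes, had a median of -0.04 over 26 genes. Of 5 macrophage markers, 3 were higher at an unadjusted p under 0.05 and none passed (median 3.04), and the sum of the list was 66.1 to 95.4 CPM in day 6 tumours (median 80.6) and 15.3 to 2840 CPM in day 16 tumours (median 658). Fibroblast markers summed to 95.4 to 364 and 45.8 to 883 CPM on these days.

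Whether the day change differed between KO and control tumours was tested as an interaction. No gene of 3785 passed (0%) in edgeR and none in DESeq2, with 125 genes at an unadjusted p under 0.05 in edgeR and 55 in DESeq2. With 2 control tumours at day 6 and 1 KO tumour at day 16, this comparison rests on few samples.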

How the data were processed

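The values deposited by the authors are UMI counts, one matrix for each of 6 libraries, which hold genes and hashtags. Cell Ranger 6.0.0 and the mm10 build are named per the submitters' processing notes. Cells needed at least 300 genes, at most 15% mitochondrial UMIs, and a top hashtag of at least 20 counts and 3 times the second. Line, day and letter came from the deposited hashtag sheet. The members, the gene lists and the rule for named genes (Mif, the gate genes, and of each of 33 lists up to 4 called members or else the 2 highest) were chosen with earlier results of these data known. No doublet caller was run. Counts of gated cells were summed per tumour, and tumours with at least 10 gated cells were fitted with edgeR 4.0.16 (filterByExpr, TMM, quasi-likelihood test, Benjamini-Hochberg, threshold 0.05) in R 4.3.3. Alternatives used DESeq2 1.42.0, limma 3.58.1 and other filters. Shares were tested by permutation (100000 resamples, or exact) over tumours with at least 200 assigned cells. CPM in the text are plain counts over the summed UMIs, without TMM. The permutation and edgeR tests were tested on simulated data. Intervals cover counting error only.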

Additional observations from a re-analysis of the deposited data

Results flagged for a closer look

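In control line 18, the day 6 tumour of letter C stood apart in its share of gated cells, at 1% against 0.307 to 0.65% in the other 8 tumours of the line. Its gap to the nearest tumour, as a part of the line's whole range, was above Dixon's 95% critical value. It was 1 such sample among 33 groups looked at, a count that repeats the groups of Igfbp3, and by that level chance marks about 1 group in 20. Among cells that passed filters but had no single clear hashtag, 110 of 47491 (0.232%, exact 95% interval 0.19 to 0.279%) met the gate, above the 0.0173% of day 0 cells. They belong to no tumour and were not analysed further. In the tumours called WT, 7 of 9029 cells met the gate (0.0775%, exact 95% interval 0.0312 to 0.16%), and the interval overlaps that of day 0 cells (0.000439 to 0.0965%).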

How the results depend on the processing

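The number of genes past the threshold was 0 in the main comparison of KO with control and differed under several choices. It was 6 with DESeq2, 40 with no filter on low counts, 14 with at least 5 gated cells per tumour, 1 with the stricter gate, 1 with the stricter cell filter, 3 in the mixed libraries alone, 1 with 1 sum per line and 2 without the cells that carry line or macrophage genes at 10 cells per tumour (0 at 5). Without these cells at 10 per tumour, the KO side was line 19 alone. Leaving out control line 15, control line 18 or KO line 24 gave 0. Without KO line 19 the single KO tumour was assumed to vary like the control tumours, so no count is given. In that fit Ccl21a, a chemokine of lymphatic vessels, had a log2 change of 10.25 and Cd34 one of -3.23. Of the 11 gated cells in that tumour, 5 held 3 or more lymphatic genes. With line as a random block (limma, consensus correlation 0.00554) it was 0. For day 16 against day 6 it was 1 with DESeq2, 47 with no filter, 4 without cells of high UMI count, 1 with library as a term, 2 with line as a term, and 7 and 16 without the carrying cells at 10 and 5 cells per tumour. Leaving out 1 line gave 0. The interaction gave 6 with no filter on low counts and 0 under its other 12 alternatives. Cells carrying other RNA were left out only after the data were seen. For the share, KO against control, the difference was -0.208 points in the mixed libraries and ran from -0.396 to -0.109 when 1 line was left out. For day 16 against day 6 it was -0.0972 with the stricter gate, -0.32 in the mixed and -0.107 in the single-line libraries, and -0.281 to -0.122 with 1 line left out. The shares kept their direction in all 12 and 11 alternatives, and passed when cells were thinned to 2000 UMIs (-0.192 and -0.16 points) or counted per Ptprc-negative cell (-0.304 and -0.23). Mif in KO ran from -0.85 to 0.35 with 1 line left out, the latter without line 19, and Selp at day 16 was 0.36 without the carrying cells. The cause of these changes was not tested. A minimum of 20 gated cells gave no value, nor did the interaction without control line 18, without KO line 19 or without the carrying cells at 10 cells per tumour. KO and control lines share no replicate numbers in the labels, where equal numbers join the expression and hashtag libraries of 1 line. With library and day as a replicate block for the permutation in the mixed libraries, added after the data were seen, the plain difference of mean shares was -0.147 points (exact permutation test, p = 0.5).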
